A study of Mus musculus with 18 samples.

Results

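The genes described here are 10 markers by which resident interstitial macrophages of the lung are recognized, *Lyve1*, *Folr2*, *Timd4*, *Mrc1*, *Cd163*, *Pf4*, *Cbr2*, *Mertk*, *Adgre1* and *Cd72*. They were taken by their symbols from a table of 21254 genes and all 10 were among the 15811 genes that passed the filter on low counts. The counts came from bulk RNA sequencing of 18 libraries of sorted mouse lung cells, 3 for each of 6 groups. WT mice carried Cre recombinase under the *Cx3cr1* gene without a floxed *Ezr*, and Ezr-KOm mice carried the same Cre with *Ezr* floxed on both alleles (Ezr fl/fl), so that ezrin, a linker of the membrane to cortical actin, was lost where *Cx3cr1* is or was active. In the study's description, this Cre is also active at a low level in conventional dendritic cells, eosinophils and NK cells.

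All mice were C57BL/6, aged 3 to 5 months and of both sexes, and all had breathed nebulized lipopolysaccharide (LPS) of Pseudomonas aeruginosa, 12.5 mg in 5 ml of PBS over 15 min, 24 h before the lungs were taken. No group without LPS was analysed here. From each genotype, monocyte-derived macrophages (moMs, labelled as CD45+CD11b+MHC-II-Ly6C+), transitional interstitial macrophages (tnsIMs, named trIM in the labels, CD45+CD11b+MHC-II+Ly6C+) and mature interstitial macrophages (matIMs, CD45+CD11b+MHC-II+Ly6C-) were sorted. The gating text of the study describes the matIM gate with the 2 last markers the other way round, and the labels were followed here. It also takes these populations from CD11c- cells, and gates alveolar macrophages and dendritic cells from CD11c+ cells.

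Interstitial macrophages live in the tissue between the alveoli and around airways, vessels and nerves, are replaced in part from blood monocytes, and take up dead cells, debris and microbes. One set of them lies along vessels and is known for *Lyve1*, a hyaluronan receptor, together with *Folr2*, a folate receptor, *Timd4*, a receptor for phosphatidylserine on dying cells, *Mrc1*, the mannose receptor CD206, and *Cd163*, the receptor for hemoglobin bound to haptoglobin, while another lies nearer to nerves and airways and is known for MHC class II. *Mertk* is a receptor tyrosine kinase that mediates uptake of dying cells, *Adgre1* encodes F4/80, *Pf4* a platelet chemokine that such macrophages also make, *Cbr2* a carbonyl reductase and *Cd72* an inhibitory C-type lectin. Several of these genes have other known sources, *Lyve1* lymphatic endothelium, *Pf4* megakaryocytes and platelets, *Cbr2* lung epithelial and mesenchymal cells, and *Cd72* and *Timd4* B cells and other antigen-presenting cells. In libraries of many cells, fewer cells of a type cannot be told apart from less RNA per cell.

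Positions below are on GRCm39, as deposited. *Lyve1* (ENSMUSG00000030787) lies at chr7:110449814-110462446 on the minus strand, *Folr2* at chr7:101489195-101506401 (minus), *Timd4* at chr11:46701627-46735159 (plus) and *Mrc1* at chr2:14234203-14336868 (plus). *Cd163* lies at chr6:124281615-124307486 (plus), *Pf4* at chr5:90920294-90921242 (plus), *Cbr2* at chr11:120620315-120622940 (minus) and *Mertk* at chr2:128540876-128644814 (plus). *Adgre1* lies at chr17:57665691-57790527 (plus) and *Cd72* at chr4:43446462-43454628 (minus). In the table *Folr2* overlaps 1 gene of the other strand, Gm10602, and *Cd72* overlaps 1, *Tesk1*. The library kit does not mark the strand, so reads from such overlaps cannot be told apart.

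The promoters of *Timd4*, *Cd72* and *Mrc1* are shown because these 3 genes were higher in matIMs than in moMs in both genotypes, *Timd4* and *Cd72* by the widest margins among the members. The 250 bases before the RefSeq start of each gene are printed from 5′ to 3′ on the gene's own strand, from a RefSeq table of GRCm38.p6 whose letters were found once each on the chromosome in GRCm39. Capitals mark matches to 4 short motifs of macrophage transcription factors, on either strand: GAGGAA (PU.1 core), TGCTGA (MAF site), TGANTCA (AP-1 site) and GAAANNGAA (a repeat bound by IRF factors). No 2 matches overlap. In the table's start, the last 22 bases of the *Mrc1* window and the last 2 of the *Cd72* window already lie inside the gene.
Timd4, chr11:46701376-46701625, plus strand: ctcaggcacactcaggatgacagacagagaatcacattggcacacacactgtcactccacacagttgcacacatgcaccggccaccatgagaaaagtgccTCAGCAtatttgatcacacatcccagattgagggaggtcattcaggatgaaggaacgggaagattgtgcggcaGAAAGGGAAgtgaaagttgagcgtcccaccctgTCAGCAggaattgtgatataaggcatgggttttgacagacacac
Cd72, chr4:43454627-43454876, minus strand: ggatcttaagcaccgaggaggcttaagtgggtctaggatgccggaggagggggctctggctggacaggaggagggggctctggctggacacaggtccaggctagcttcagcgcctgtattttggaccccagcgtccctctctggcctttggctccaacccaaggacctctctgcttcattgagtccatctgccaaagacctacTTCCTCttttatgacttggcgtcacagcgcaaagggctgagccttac
Mrc1, chr2:14233975-14234224, plus strand: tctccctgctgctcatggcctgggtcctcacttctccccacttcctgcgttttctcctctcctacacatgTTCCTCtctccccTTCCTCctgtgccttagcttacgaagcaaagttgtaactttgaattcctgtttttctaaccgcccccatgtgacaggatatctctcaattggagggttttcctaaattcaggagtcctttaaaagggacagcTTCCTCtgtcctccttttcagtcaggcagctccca
*Timd4* has 2 matches to the MAF site, read on the other strand as TCAGCA, with their first bases 150 and 44 bases before the start, and 1 to the IRF repeat, GAAAGGGAA, which begins 77 bases before it. *Mrc1* has 3 matches to the PU.1 core, beginning 180, 167 and 35 bases before the start, and *Cd72* has 1, beginning 47 bases before it, all read on the other strand as TTCCTC. Of 32851 windows of the same length in the table, 23.3% hold the PU.1 core, 16.1% the MAF site, 7.13% the IRF repeat and 6.75% the AP-1 site, so matches of these lengths are common. Windows were given for 8 of the 10 members, with 2 starts for *Folr2*. *Cbr2* and *Pf4* hold 1 PU.1 core each, *Folr2* holds 2 MAF sites, 1 AP-1 site and 1 IRF repeat over its 2 windows, and these letters are not in the windows of *Cd163* and *Mertk*. The windows of *Lyve1* and *Adgre1* were not used here.

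Library totals ranged from 16512783 to 48460995 counts, the largest being Ezr-KOm tnsIM library 2. Replicates differed beyond sampling noise in every group. *Ezr* itself was lower in Ezr-KOm than in WT in every population, with means of 231 against 531 CPM (counts scaled to the depth of the library) in moMs (log2 fold change -1.20, adjusted p = 0.0549), 191 against 586 in tnsIMs (-1.62, adjusted p = 0.00365) and 135 against 661 in matIMs (-2.29, adjusted p = 7.7e-05). Of the genes behind the sort, *Ly6c2* averaged 481 CPM in WT moMs, 219 in WT tnsIMs and 51.2 in WT matIMs, and all 11 genes of the MHC class II list were higher in tnsIMs and matIMs than in moMs in both genotypes. The libraries of Ezr-KOm replicate 2 stood apart for some of the members: in moMs and in tnsIMs they held the highest value of *Folr2*, *Cd163*, *Pf4* and *Cbr2* among the 6 libraries of the population. Counts of members called are therefore also given without the 3 libraries of this replicate, an alternative chosen after the data were seen.

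The labels call these cells macrophages, and *Adgre1* had the highest mean CPM of the members in every group. Per kilobase of exon, its level lay between 65.1 CPM per kb in Ezr-KOm tnsIMs and 121 CPM per kb in WT moMs. With the exon lengths used, this was above every library of the next gene in each group. With these lengths the next in moMs was *Pf4*, at 12.8 CPM per kb in WT, whereas in tnsIMs and matIMs it was *Cd72*, at 17.4 and 30.9 CPM per kb in WT, whose libraries overlapped those of the gene below it (*Cbr2* and *Pf4*). The length used for *Pf4*, 2.462 kb, is longer than its whole deposited span given above. If that span was the one counted, its levels per kb are too low. The place of *Pf4* relative to *Cd72* and *Adgre1* is therefore not settled. Of the members known from perivascular macrophages, *Folr2* and *Cd163* were low in every group. Per kb, *Folr2* was last in 5 of 6 groups (0.0425 to 0.369 CPM per kb) and next to last in the sixth (0.203), and *Cd163* never exceeded 2.03 CPM per kb on average. *Mrc1* stood higher in the order, at 9.95 CPM per kb in WT matIMs and 5.09 in WT moMs. *Timd4* moved from the bottom of the order in moMs (0.0503 CPM per kb in WT) to the middle in matIMs (4.68 in WT, 7.23 in Ezr-KOm), and *Lyve1* moved the other way, from 11.9 CPM per kb in WT tnsIMs to 1.21 in WT matIMs.

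**Figure D1:**
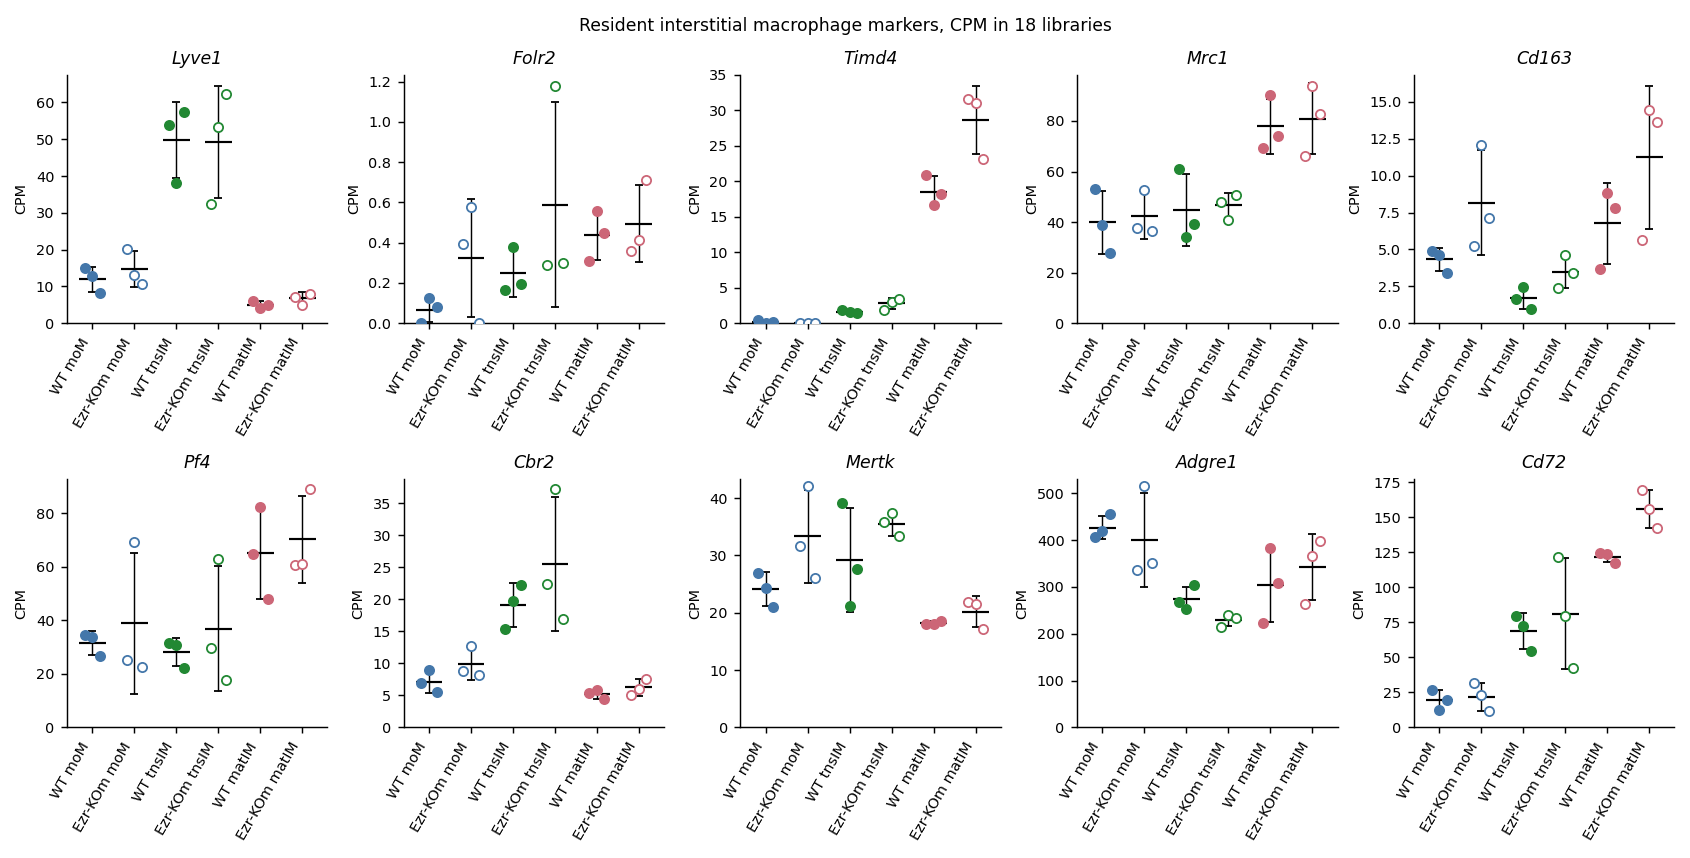
CPM of each of the 10 members (1 panel each, vertical axis from 0) in the 18 libraries, by group along the horizontal axis. Points are libraries (filled WT, open Ezr-KOm), horizontal bars are group means and error bars are SD over the 3 libraries. *Lyve1* and *Cbr2* peak in tnsIMs, *Timd4*, *Mrc1* and *Cd72* in matIMs, and *Adgre1* is highest on average in moMs.

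Between the sorted populations the 10 genes did not move as a block. In WT, 4 members were higher and 2 lower in tnsIMs than in moMs at an adjusted p under 0.05, where 21.6% of all tested genes were called. The median log2 fold change was 0.85 over the members and 0.015 over all tested genes. In WT matIMs against moMs, 3 members were higher and 1 lower, beside 24.8% of all genes (medians 0.81 and 0.013), and in WT matIMs against tnsIMs 4 were higher and 3 lower, beside 18.5% (medians 0.81 and 0.037). In Ezr-KOm, the counts were 4 higher and 1 lower in tnsIMs against moMs (14.3% of all genes called, medians 0.52 and 0.0086), 3 higher and 2 lower in matIMs against moMs (23.3%, medians 0.52 and 0.0067) and 4 higher and 3 lower in matIMs against tnsIMs (18.2%, medians 0.69 and 0.015).

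Without the replicate 2 libraries of Ezr-KOm, the WT counts in the same order were 4 higher and 2 lower, 4 and 1 (*Pf4* added), and 4 and 3, beside 20.5%, 23.9% and 18% of all tested genes. Those of Ezr-KOm were 4 and 0 in tnsIMs against moMs (*Adgre1* lost), 4 and 0 in matIMs against moMs (*Pf4* added, *Lyve1* and *Mertk* lost) and 3 and 3 in matIMs against tnsIMs (*Pf4* added, *Mrc1* and *Adgre1* lost), beside 6.85%, 16.5% and 10.7% of all tested genes. In WT matIMs against tnsIMs, 4 members were called without WT matIM library 2, beside 13.7% of all tested genes.

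**Figure D2:**
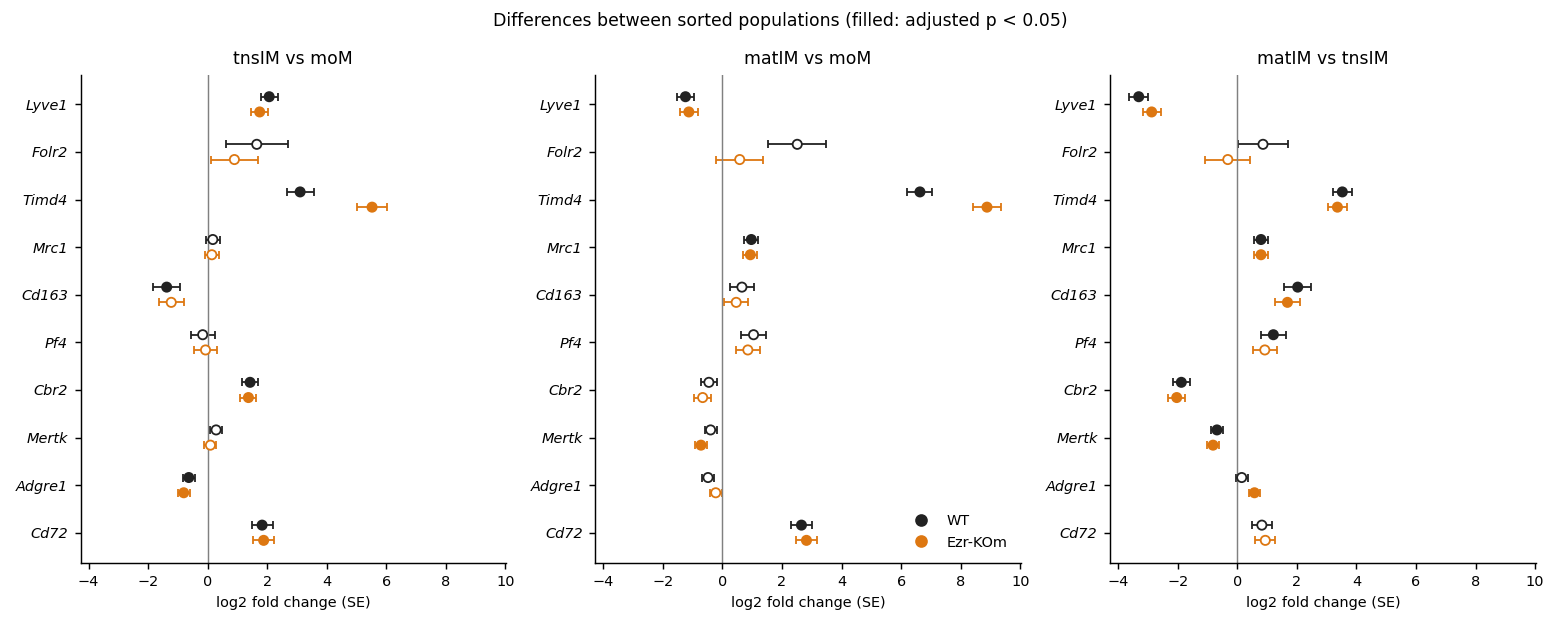
Log2 fold change with its SE (horizontal axis) of each member (vertical axis) in tnsIMs against moMs, matIMs against moMs and matIMs against tnsIMs, in WT (black) and Ezr-KOm (orange), with filled points where the adjusted p is under 0.05. *Timd4* and *Cd72* lie to the right of 0 in all 3 panels, and *Lyve1* and *Cbr2* lie to the right in the first and to the left in the last. The points of *Timd4* against Ezr-KOm moMs and of *Folr2* against WT moMs depend on a prior count, since no library there held more than 3 counts.

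*Timd4*, the receptor for phosphatidylserine, showed the steepest course of the 10 genes. Its counts in WT moMs were 7, 1 and 4 in libraries 1 to 3 (0.399, 0.0414 and 0.157 CPM), and Ezr-KOm moMs had 4 counts in all. Levels were 1.79, 1.52 and 1.49 CPM in WT tnsIMs, and 1.87, 3.01 and 3.43 in Ezr-KOm tnsIMs. In matIMs they were 20.9, 16.6 and 18.1 CPM in WT and 31.7, 31.1 and 23.2 in Ezr-KOm. The 3 populations did not overlap in either genotype. In WT the log2 fold change was 3.10 (SE 0.45, adjusted p = 8.89e-05) from moMs to tnsIMs and 3.53 (SE 0.32, adjusted p = 5.00e-07) from tnsIMs to matIMs. In Ezr-KOm it was 3.36 (SE 0.31, adjusted p = 6.71e-07) from tnsIMs to matIMs. Against the 4 counts of Ezr-KOm moMs, the ratio of summed counts, scaled for depth, was 50.7 in tnsIMs (95% exact counting interval 19.6 to 187) and 518 in matIMs (202 to 1904), intervals that cover counting error only.

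*Cd72*, the inhibitory lectin, followed the same order. The study itself named this gene from these libraries, so its values are no independent evidence. It lay at 26.9, 12.2 and 19.4 CPM in WT moMs, at 79.3, 72.8 and 54.8 in WT tnsIMs, and at 125, 124 and 117 in WT matIMs. The Ezr-KOm libraries held 31.5, 23.1 and 11.6 CPM in moMs, 122, 79.7 and 42.5 in tnsIMs, and 170, 156 and 142 in matIMs. No library of moMs reached the lowest of tnsIMs, and none of tnsIMs reached the lowest of matIMs of its own genotype. Both rises from moMs passed the test in both genotypes, to tnsIMs by 1.83 (SE 0.35, adjusted p = 0.000957) in WT and 1.88 (SE 0.35, adjusted p = 0.00115) in Ezr-KOm, and to matIMs by 2.65 (SE 0.36, adjusted p = 2.02e-05) and 2.82 (SE 0.36, adjusted p = 1.07e-05). From tnsIMs to matIMs the log2 fold changes were 0.82 (SE 0.34, adjusted p = 0.106) in WT and 0.94 (SE 0.34, adjusted p = 0.0608) in Ezr-KOm. The latter was called without Ezr-KOm tnsIM library 1 (1.34, adjusted p = 0.0144) and by DESeq2.

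The endocytic receptor *Mrc1* overlapped between moMs and tnsIMs and was higher in matIMs. It lay at 52.9, 38.9 and 27.8 CPM in WT moMs, at 61.1, 33.9 and 39.3 in WT tnsIMs and at 69.2, 90.2 and 74.1 in WT matIMs. In Ezr-KOm the values were 37.7, 52.8 and 36.4 CPM in moMs, 48.1, 41.0 and 50.8 in tnsIMs and 66.0, 94.0 and 82.7 in matIMs. Every matIM library was above every moM and tnsIM library of either genotype. Against moMs the rise in matIMs was 0.97 on the log2 scale (SE 0.24, adjusted p = 0.00515) in WT and 0.94 (SE 0.24, adjusted p = 0.00679) in Ezr-KOm. Against tnsIMs it was 0.80 in both (SE 0.24, adjusted p = 0.0232 in WT and 0.0228 in Ezr-KOm). The WT call was lost without WT tnsIM library 2 (0.59, adjusted p = 0.144) or 3 (0.65, 0.110) or WT matIM library 2 (0.64, 0.131). The Ezr-KOm call was lost without any of the 3 Ezr-KOm tnsIM libraries or without Ezr-KOm matIM library 2 or 3 (0.68 to 0.81, adjusted p = 0.0514 to 0.101).

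*Cd163*, the hemoglobin scavenger receptor, was lowest in tnsIMs. It lay at 4.90, 4.64 and 3.43 CPM in WT moMs, at 1.67, 2.47 and 0.940 in WT tnsIMs and at 3.68, 8.84 and 7.79 in WT matIMs. In Ezr-KOm it lay at 5.22, 12.1 and 7.14 CPM in moMs, at 2.41, 4.59 and 3.39 in tnsIMs and at 5.66, 14.4 and 13.6 in matIMs. In each genotype all 3 tnsIM libraries were below all moM and matIM libraries. From tnsIMs to matIMs it rose by 2.03 (SE 0.45, adjusted p = 0.00281) in WT and by 1.68 (SE 0.42, adjusted p = 0.00694) in Ezr-KOm. From moMs to tnsIMs it fell by 1.38 on the log2 scale in WT (SE 0.45, adjusted p = 0.0344), a call lost without WT moM library 1 or 2 or WT tnsIM library 1 or 3 (-1.05 to -1.39, adjusted p = 0.0767 to 0.121). In Ezr-KOm the difference was -1.22 (SE 0.41, adjusted p = 0.0564), and it was called without Ezr-KOm moM library 1, WT tnsIM library 3, WT matIM library 1 or Ezr-KOm matIM library 1 (-1.21 to -1.42, adjusted p = 0.0356 to 0.0442).

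*Lyve1*, the hyaluronan receptor by which perivascular macrophages are named, was highest in tnsIMs and lowest in matIMs. It lay at 14.9, 12.7 and 8.15 CPM in WT moMs, at 53.8, 38.0 and 57.4 in WT tnsIMs and at 6.03, 4.14 and 4.88 in WT matIMs. The Ezr-KOm values were 20.2, 13.1 and 10.8 CPM in moMs, 32.4, 53.3 and 62.2 in tnsIMs and 7.21, 4.92 and 8.05 in matIMs. The populations did not overlap in either genotype. Between moMs and tnsIMs it rose by 2.07 on the log2 scale in WT (SE 0.29, adjusted p = 6.56e-05) and by 1.75 in Ezr-KOm (SE 0.29, adjusted p = 0.00042). Between tnsIMs and matIMs it fell by 3.31 in WT (SE 0.31, adjusted p = 5.95e-07) and by 2.88 in Ezr-KOm (SE 0.30, adjusted p = 2.12e-06). In matIMs against moMs the change was -1.24 in WT (SE 0.30, adjusted p = 0.00428) and -1.13 in Ezr-KOm (SE 0.29, adjusted p = 0.00769). The last call was lost without Ezr-KOm moM library 1 (-0.82, adjusted p = 0.0576).

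The reductase *Cbr2* shared the peak in tnsIMs. It lay at 6.95, 8.91 and 5.55 CPM in WT moMs, at 15.4, 19.8 and 22.2 in WT tnsIMs and at 5.36, 5.81 and 4.43 in WT matIMs. In Ezr-KOm it lay at 8.74, 12.7 and 8.24 CPM in moMs, at 22.4, 37.2 and 16.9 in tnsIMs and at 5.06, 6.05 and 7.63 in matIMs. The tnsIM libraries were above all others in both genotypes, while moMs and matIMs overlapped in WT and were apart in Ezr-KOm. The rise from moMs to tnsIMs was 1.42 (SE 0.28, adjusted p = 0.00106) in WT and 1.37 (SE 0.27, adjusted p = 0.0019) in Ezr-KOm. The change from tnsIMs to matIMs was -1.88 (SE 0.28, adjusted p = 7.92e-05) in WT and -2.03 (SE 0.28, adjusted p = 3.28e-05) in Ezr-KOm.

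*Pf4*, the chemokine, was highest on average in matIMs. It lay at 34.6, 33.7 and 26.6 CPM in WT moMs, at 31.5, 30.9 and 22.1 in WT tnsIMs and at 64.8, 82.5 and 48.2 in WT matIMs. The Ezr-KOm values were 25.1, 69.2 and 22.4 CPM in moMs, 29.8, 63.1 and 17.8 in tnsIMs and 60.7, 61.2 and 89.1 in matIMs. The WT matIM libraries were above all WT moM and tnsIM libraries, whereas in Ezr-KOm library 2 of moMs and of tnsIMs reached into the matIM range. In WT the log2 fold change was 1.21 (SE 0.41, adjusted p = 0.0451) in matIMs against tnsIMs and 1.04 (SE 0.41, adjusted p = 0.0698) against moMs. In Ezr-KOm it was 0.92 (SE 0.40, adjusted p = 0.135) and 0.85 (SE 0.40, adjusted p = 0.147). Without Ezr-KOm tnsIM library 2 the former was 1.56 (adjusted p = 0.0127), and without Ezr-KOm moM library 2 the latter was 1.54 (adjusted p = 0.00838). The WT call against tnsIMs was lost in 15 of 26 alternatives, among them DESeq2 (1.18, adjusted p = 0.0688) and each of the WT libraries of all 3 populations left out other than WT matIM library 3, and the difference from WT moMs was called without Ezr-KOm moM library 2 or Ezr-KOm tnsIM library 2 or 3 (1.01 to 1.05, adjusted p = 0.0318 to 0.0443).

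*Mertk*, the receptor for bridged phosphatidylserine, was lowest in matIMs. It lay at 27.0, 24.4 and 21.1 CPM in WT moMs, at 39.1, 21.2 and 27.6 in WT tnsIMs and at 18.1, 18.1 and 18.6 in WT matIMs. In Ezr-KOm it lay at 31.7, 42.1 and 26.1 CPM in moMs, at 35.9, 37.3 and 33.3 in tnsIMs and at 21.9, 21.5 and 17.1 in matIMs. All matIM libraries were below all moM and tnsIM libraries of their genotype. Against tnsIMs the change in matIMs was -0.68 (SE 0.20, adjusted p = 0.0227) in WT and -0.81 (SE 0.20, adjusted p = 0.00698) in Ezr-KOm. Against moMs it was -0.40 in WT, which did not pass the test, and -0.72 (SE 0.20, adjusted p = 0.0129) in Ezr-KOm. The WT call was lost without WT tnsIM library 1 (-0.43, adjusted p = 0.165) or WT matIM library 1 or 2, and the call against Ezr-KOm moMs was lost without Ezr-KOm moM library 2 (-0.54, adjusted p = 0.0846) or Ezr-KOm matIM library 3 (-0.63, adjusted p = 0.0646).

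*Adgre1*, which encodes F4/80, was highest on average in moMs and lowest in tnsIMs. It lay at 406, 420 and 455 CPM in WT moMs, at 268, 253 and 303 in WT tnsIMs and at 223, 382 and 308 in WT matIMs. In Ezr-KOm it lay at 335, 516 and 350 CPM in moMs, at 214, 240 and 233 in tnsIMs and at 263, 367 and 397 in matIMs. In each genotype the tnsIM libraries were below all moM libraries, and the matIM range overlapped that of tnsIMs in WT only. From moMs to tnsIMs it fell by 0.63 on the log2 scale in WT (SE 0.20, adjusted p = 0.0271) and by 0.80 in Ezr-KOm (SE 0.20, adjusted p = 0.00873). The WT call was lost without WT moM library 2 or 3 or WT tnsIM library 1 or 2 (-0.55 to -0.64, adjusted p = 0.0542 to 0.0928) and the Ezr-KOm call without Ezr-KOm moM library 2 (-0.57, adjusted p = 0.0619). From tnsIMs to matIMs it rose by 0.58 in Ezr-KOm (SE 0.20, adjusted p = 0.048), a call kept in 8 of 26 alternatives and lost, among others, without any single library of Ezr-KOm tnsIMs (0.52 to 0.61). In matIMs against moMs the change was -0.49 in WT (SE 0.20, adjusted p = 0.0812), with all matIM libraries below all moM libraries. It stayed uncalled in 20 of 26 alternatives and was called, among others, by DESeq2 (-0.50, adjusted p = 0.0497). In Ezr-KOm the change was -0.23 (SE 0.20, adjusted p = 0.472), with overlap.

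*Folr2*, the folate receptor, was close to the limit of detection throughout. WT moMs held 5 counts in all, and no library of any group exceeded 1.18 CPM, the value of Ezr-KOm tnsIM library 2. The WT tnsIM libraries lay at 0.167, 0.380 and 0.196 CPM and the WT matIM libraries at 0.310, 0.555 and 0.447. Ezr-KOm libraries held 0.391, 0.578 and 0 CPM in moMs, 0.291, 1.18 and 0.297 in tnsIMs and 0.359, 0.413 and 0.713 in matIMs. Against WT moMs the ratio of summed counts, scaled for depth, was 3.08 in WT tnsIMs (95% exact counting interval 1.07 to 10.8, from 15 counts) and 5.90 in WT matIMs (2.28 to 19.4, from 32 counts). *Folr2* was called in no comparison of populations, although its fitted log2 fold change in WT matIMs against moMs (2.51, adjusted p = 0.0714, dependent on the prior count) was called without Ezr-KOm moM library 3 and by DESeq2.

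Markers of other cell types moved with some of the members. For *Lyve1*, the summed level of 12 endothelial and lymphatic markers was 99.9 to 128 CPM in WT moMs, 283 to 504 in WT tnsIMs and 226 to 405 in Ezr-KOm tnsIMs, and 78.3 to 112 in matIMs of both genotypes. In WT tnsIMs against moMs, 8 of 11 tested markers of this list were higher and 0 lower, and in WT matIMs against tnsIMs 0 were higher and 8 lower. In Ezr-KOm, 7 were higher and 0 lower in tnsIMs than in moMs, and 1 was higher and 7 lower in matIMs than in tnsIMs. *Prox1* and *Reln*, which mark lymphatic endothelium, averaged at most 0.289 and 0.623 CPM in any group. They were the only genes of the list with at most 3 counts in every library of a group. The levels of its other lymphatic markers are not given here, so these values do not stand for them. Over the 18 libraries, which differ by population, the Pearson correlation of log2 levels between *Lyve1* and this sum was 0.939, and 0.619 for the deviations from group means. The part of these cells in the *Lyve1* result was not tested.

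For *Cbr2*, 10 fibroblast markers summed to 36.3 to 82.1 CPM in moMs, 138 to 230 in tnsIMs and 23.9 to 47.4 in matIMs. In WT, 7 of the 10 were higher in tnsIMs than in moMs and 8 were lower in matIMs than in tnsIMs, with none the other way in these comparisons. In Ezr-KOm, 8 were higher and 0 lower in tnsIMs than in moMs, and 1 was higher and 7 lower in matIMs than in tnsIMs. The correlation with *Cbr2* was 0.951 over the 18 libraries and 0.465 within groups. The 12 epithelial markers summed to 86.9 to 202 CPM in moMs, 1960 to 4495 in tnsIMs and 367 to 636 in matIMs, with a correlation to *Cbr2* of 0.675 and -0.073. Their part in the *Cbr2* result was not tested.

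For *Timd4* and *Cd72*, markers of mature migratory dendritic cells stood out. Their 12 genes, led by *Ccl22*, *Ccr7* and *Fscn1*, summed to 154 to 248 CPM in moMs, 600 to 976 in tnsIMs and 6387 to 9213 in matIMs, and all 12 were higher in matIMs than in tnsIMs in both genotypes. The 12 markers of conventional dendritic cells rose from 223 to 274 CPM in moMs to between 1479 and 2367 in matIMs, with 10 called higher in matIMs than in moMs in both genotypes and 0 lower. B cell markers summed to 14.9 to 22.4 CPM in moMs, 74.3 to 180 in tnsIMs and 154 to 354 in matIMs, with all 12 higher in matIMs than in moMs. *Timd4* correlated over the 18 libraries at 0.969, 0.918 and 0.932 with the 3 sums, and *Cd72* at 0.887, 0.797 and 0.862, but within groups the values were 0.091, -0.153 and -0.157 for *Timd4* and -0.051, -0.331 and -0.614 for *Cd72*. The part of these cells in the *Timd4* and *Cd72* results was not tested.

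*Mrc1* is also known from alveolar macrophages, and 12 markers of these cells, taken as a sum, were likewise highest in matIMs. They summed to 369 to 438 CPM in moMs, 643 to 807 in tnsIMs and 854 to 1060 in matIMs. In matIMs against moMs 11 of the 12 were higher and 0 lower in both genotypes (median log2 fold change 2.56 in WT and 2.64 in Ezr-KOm), and in matIMs against tnsIMs 4 were higher in WT and 5 in Ezr-KOm, with 0 lower. In WT tnsIMs against moMs, where *Mrc1* overlapped, 6 were higher and 1 lower. *Itgax*, which encodes CD11c and which dendritic cells also express, gave 269 CPM of the sum on average in WT moMs, while *Siglecf* averaged 1.85 CPM in WT moMs and 8.14 in WT matIMs. The correlation of *Mrc1* with the sum was 0.731 over the 18 libraries and 0.317 within groups. The part of these cells in the *Mrc1* result was not tested.

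For *Pf4*, 11 markers of megakaryocytes and platelets were listed, of which 6 passed the filter on low counts. The list summed to 5.00 to 24.5 CPM in the 18 libraries, and *Pf4* alone exceeded the sum in 18 of 18. In WT matIMs against moMs, where *Pf4* differed by 1.04, 0 of the 6 were called, and in WT matIMs against tnsIMs, where *Pf4* was higher, 0 were higher and 3 lower. The correlation of *Pf4* with the sum was -0.000 over the 18 libraries and 0.495 within groups. The part of these cells in the *Pf4* values was not tested.

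**Figure D3:**
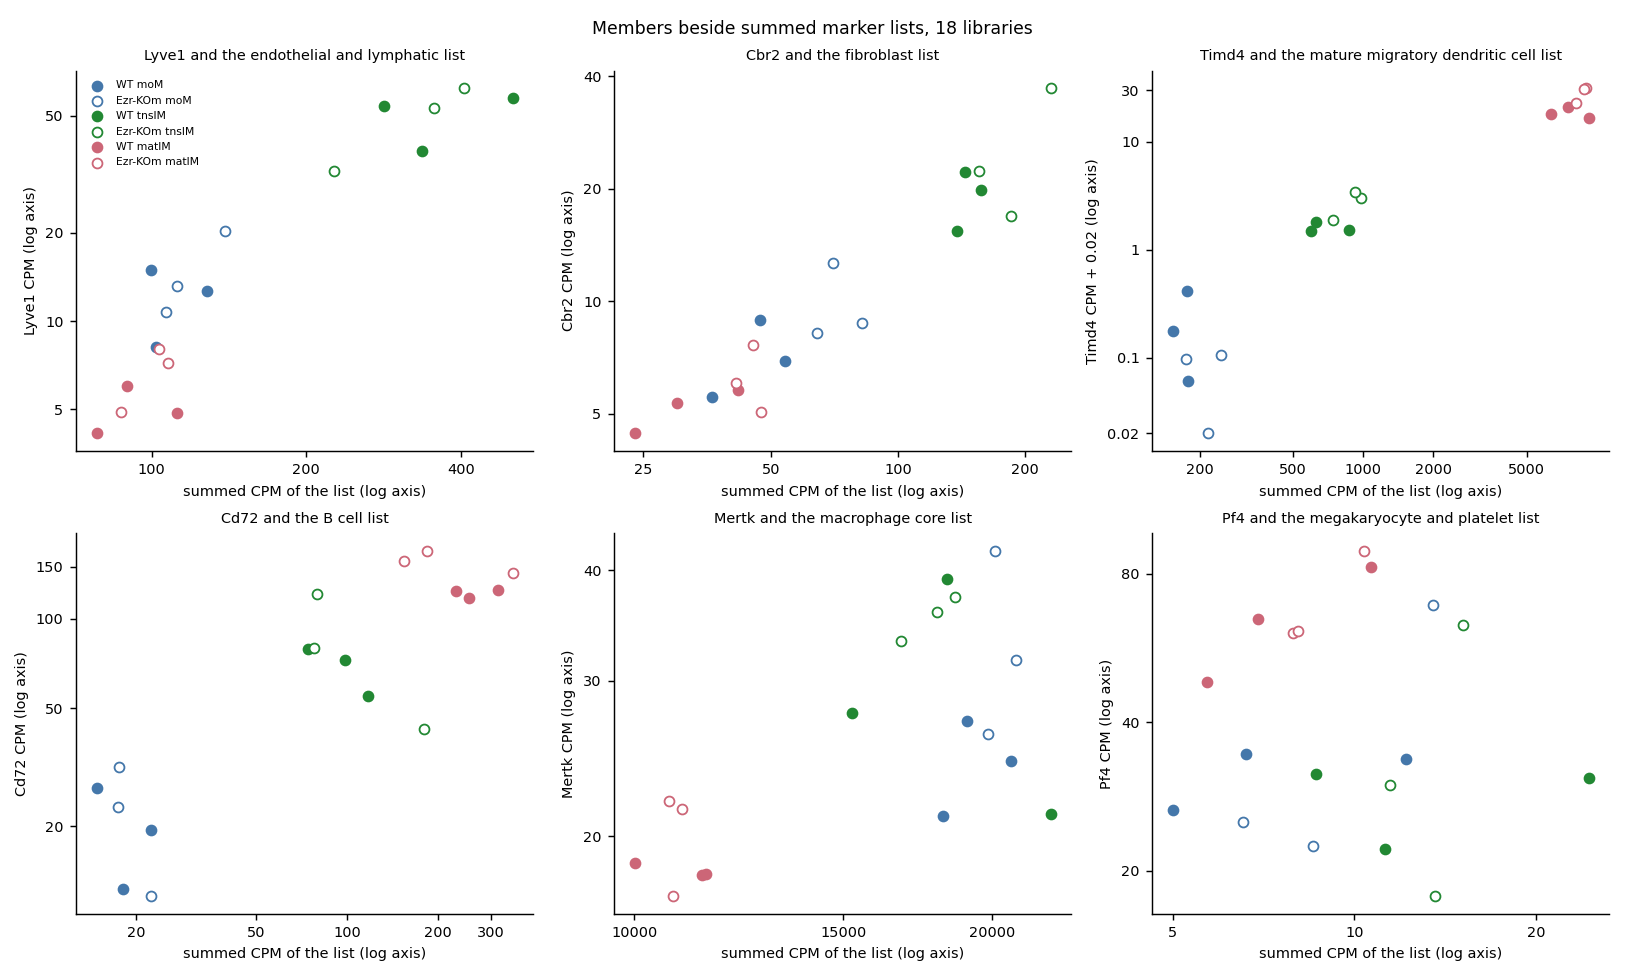
CPM of *Lyve1*, *Cbr2*, *Timd4*, *Cd72*, *Mertk* and *Pf4* (vertical axes, log scale, *Timd4* with 0.02 added) against the summed CPM of a marker list (other cell types, or core macrophage genes for *Mertk*; horizontal axes, log scale). Each point is a library, coloured by population, filled for WT and open for Ezr-KOm. Between populations *Lyve1* rises with the endothelial sum, *Cbr2* with the fibroblast sum, *Timd4* with the mature migratory dendritic cell sum and *Cd72* with the B cell sum. *Mertk* has a correlation of 0.655 with the core macrophage sum over the 18 libraries and -0.205 within groups. *Pf4* has a correlation of -0.000 with the platelet sum over the 18 libraries and 0.495 within groups.

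The members fell into no single pattern among themselves. Over the 18 libraries the Pearson correlation of log2 CPM ranged from -0.72 between *Lyve1* and *Cd163* to 0.93 between *Timd4* and *Cd72*. *Lyve1* and *Cbr2* correlated at 0.90, which fell to 0.10 once group means were removed, while *Pf4* and *Cbr2* went from -0.33 to 0.80. These values rest on 3 populations and are descriptions only.

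**Figure D4:**
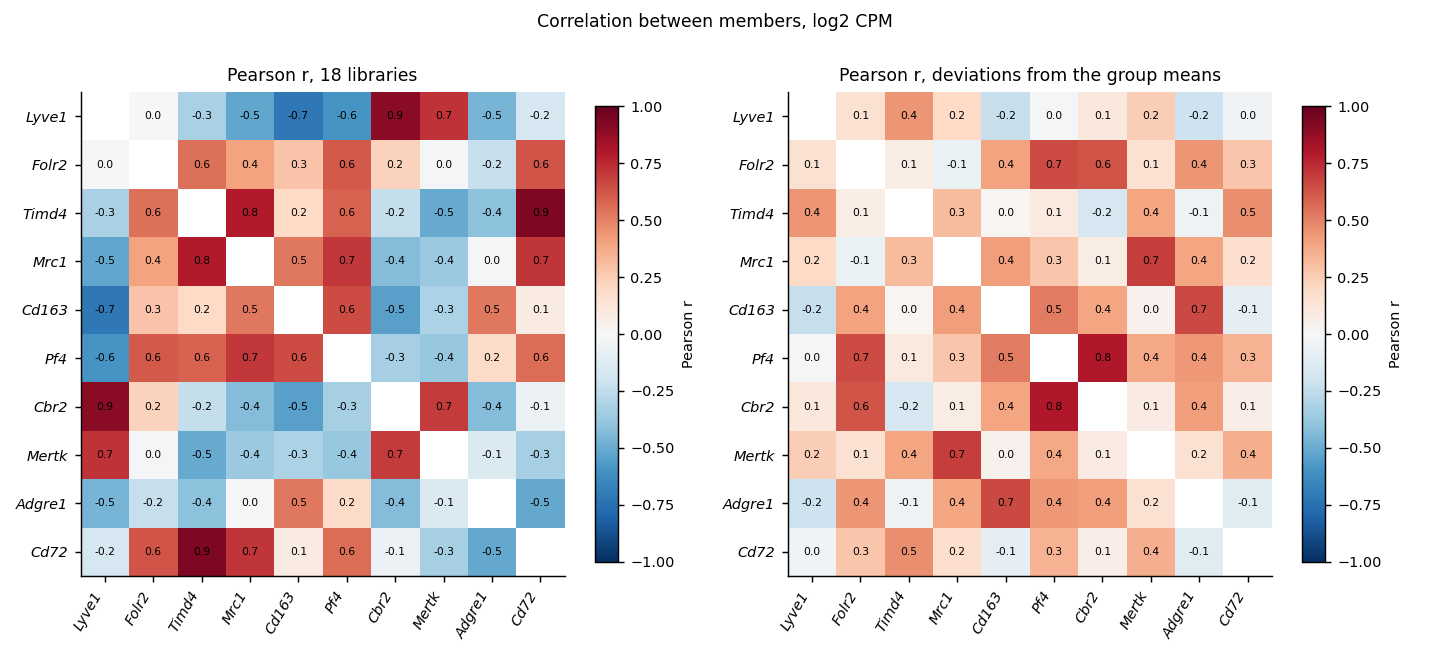
Pearson correlation of log2 CPM for each pair of members, over the 18 libraries (left) and over deviations from the group means (right), from blue (-1) through white (0) to red (1). *Timd4* and *Cd72* (0.93) and *Lyve1* and *Cbr2* (0.90) are the highest pairs on the left, and *Pf4* and *Cbr2* (0.80) the highest on the right.

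The genes most like each member over the 18 libraries were those with the highest correlation of log2 CPM among all tested genes. For *Lyve1* they were *Ly6c1*, *Cdh5* and *Ramp2* (each 0.98), of which *Cdh5* encodes the cadherin of endothelial junctions. For *Cbr2* they were *Igfbp7* (0.96), *Col1a2*, a collagen chain (0.95), and *Ackr1* (0.94). *Timd4* was nearest to *H2-Oa*, an MHC class II chaperone, *Zmynd15* and *Aldh1a2*, a retinal dehydrogenase of dendritic cells (each 0.98), and *Cd72* to *Slamf9* (0.98), *Cxcl16*, a chemokine that is also a scavenger receptor (0.97), and *Vash1* (0.96).

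*Mertk* was nearest to *Adamtsl4* (0.96) and to the scavenger receptors *Stab1* and *Olr1* (each 0.91). *Mrc1* was nearest to *Slc41a2* (0.92), 4931406G06Rik (0.91) and *Hpgds*, a prostaglandin D synthase (0.90). *Adgre1* was nearest to *Mctp1*, *Cd300lg* and *Man2a2* (0.87, 0.87 and 0.85), *Cd163* to *Fhit*, *Stard7* and *B4galnt4* (0.86, 0.86 and 0.84), and *Pf4* to *Mrpl39*, *Slc17a9* and Gm37881 (0.90, 0.89 and 0.87). *Folr2*, at its few counts, was nearest to *Afp* (0.87), *Actr3b* (0.84) and *Tmem80* (0.81).

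Other macrophage genes also went both ways. Of 24 core macrophage genes, 6 were higher and 15 lower in WT matIMs than in moMs (median log2 fold change -0.97), with the tetraspanin gene *Cd81* higher by 2.98 and *Tcn2* and *Fgd4* lower (-1.40 and -2.34), and in Ezr-KOm 6 were higher and 14 lower (median -0.72). Of 21 tested companions of resident macrophages, 9 were higher and 6 lower in WT matIMs than in moMs (median 1.21). The lectin genes *Cd209d* and *Clec10a* were higher there by 5.94 and 2.83, whereas the selenium carrier *Selenop* was at -1.91. In Ezr-KOm the count was 10 higher and 5 lower (median 1.15), with *Cd209d* at 5.25.

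Genes that act beside *Timd4* and *Mertk* in the uptake of dying cells were divided too. Of 14 tested phosphatidylserine receptors and bridging ligands, 3 were higher and 6 lower in WT matIMs than in moMs (median -0.38), and 4 and 6 in Ezr-KOm (median -0.39). *Havcr1*, which encodes another receptor of the TIM family, was called higher in both genotypes, with means of 2.40 CPM in WT matIMs against 0.0525 in WT moMs and 2.98 against 0.0290 in Ezr-KOm, while the integrin gene *Itgb5* (-1.04 and -1.19) and *Lrp1* (-1.41 and -1.65) were lower. In WT tnsIMs against moMs 3 of the 14 were higher and 2 lower, with *Axl*, a kinase related to *Mertk*, higher by 1.27 and its bridging ligand *Gas6* by 2.19. Of 13 tested scavenger receptor genes, 4 were higher and 7 lower in WT matIMs than in moMs (median -0.55), with *Msr1* at -1.72 and *Marco* and *Cxcl16* at 4.70 and 1.54. Monocyte genes were lower, 13 of 14 in WT matIMs against moMs and 0 higher (median -2.14), with *Hp* at -3.50.

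The last comparison asks what the loss of ezrin does to the markers within each population. No member differed between Ezr-KOm and WT past the threshold on the adjusted p. edgeR called 0 of the 10 in moMs, where 0.171% of all tested genes were called, 0 in tnsIMs (0.164%) and 0 in matIMs (0.152%). At an unadjusted p under 0.05 there were 3, 2 and 1 members, beside 3.74%, 3.24% and 3.84% of all tested genes, and DESeq2 also called 0 in each population. Most estimates were above 0, in 8 members in moMs (median 0.30, against 0.0022 over all tested genes), 8 in tnsIMs (median 0.34, against 0.0020) and 10 in matIMs (median 0.22, against -0.0014). Without the replicate 2 libraries of Ezr-KOm these were 6 (median 0.20), 7 (median 0.17) and 9 (median 0.29).

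The study's own rule asks for a log2 fold change beyond 0.75 in either direction and an unadjusted p under 0.05. By it, 2 members were called in moMs, where 2.51% of all tested genes were called, 2 in tnsIMs (1.83%) and 0 in matIMs (2.4%). Without the replicate 2 libraries of Ezr-KOm, the counts in moMs and tnsIMs were 0, and the share of all tested genes was not computed. The 2 in moMs were *Cd163*, higher in Ezr-KOm by 0.92 (SE 0.41, adjusted p = 1), and *Timd4*, lower at 4 counts against 12 in WT (ratio of summed counts scaled for depth 0.312, 95% exact counting interval 0.0734 to 1.03). The *Cd163* estimate was 0.52 without Ezr-KOm moM library 2. *Mertk*, with 0.47 (SE 0.20), did not reach the fold change of the rule. For *Folr2* in moMs, 24 counts stood against 5 in WT (ratio 4.50, 1.68 to 15.1). With the replicate number as a block, *Timd4* in moMs no longer met the rule and *Folr2* met it.

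The 2 called in tnsIMs were the same 2 genes. *Timd4* was higher in Ezr-KOm by 0.79 (SE 0.32, adjusted p = 1), with means of 2.77 ± 0.809 CPM against 1.60 ± 0.167 (SD, n = 3), and *Cd163* by 1.07 (SE 0.44, adjusted p = 1), with 3.46 ± 1.09 CPM against 1.69 ± 0.767. All 3 Ezr-KOm libraries lay above all WT libraries for *Timd4*, and the genotypes overlapped for *Cd163*. *Adgre1* was apart the other way in tnsIMs, with all 3 Ezr-KOm libraries below all WT libraries (means of 229 and 275 CPM, log2 fold change -0.26, SE 0.20, adjusted p = 1). In moMs the 3 Ezr-KOm libraries of *Cd163* were above those of WT. In matIMs *Timd4* was at 28.6 ± 4.74 CPM in Ezr-KOm and 18.5 ± 2.16 in WT (log2 fold change 0.63, SE 0.28, adjusted p = 0.9999), again without overlap, and *Cd72* at 156 ± 13.7 and 122 ± 4.18 CPM (log2 fold change 0.35), also without overlap. The share of all tested genes whose libraries were apart between genotypes was not computed. These separations are therefore not shown to be particular to the members. Of the markers of mature migratory dendritic cells, 0 of 12 were called between the genotypes in matIMs. With 0.152% of all tested genes called there, this count cannot tell whether those markers differ.

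No member had a genotype effect that differed between populations at the adjusted threshold, and 0% of all tested genes were called by edgeR in each of the 3 interactions. DESeq2 called 0 genes as well. At an unadjusted p under 0.05, edgeR had 233 genes for tnsIMs against moMs, 268 for matIMs against moMs and 183 for matIMs against tnsIMs. *Timd4* was the only member among them, in the first (2.42, SE 0.84, adjusted p = 1) and the second (2.25, SE 0.82, adjusted p = 0.9999), and both rest on the 12 counts in WT moMs and 4 in Ezr-KOm moMs and on the prior count.

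**Figure D5:**
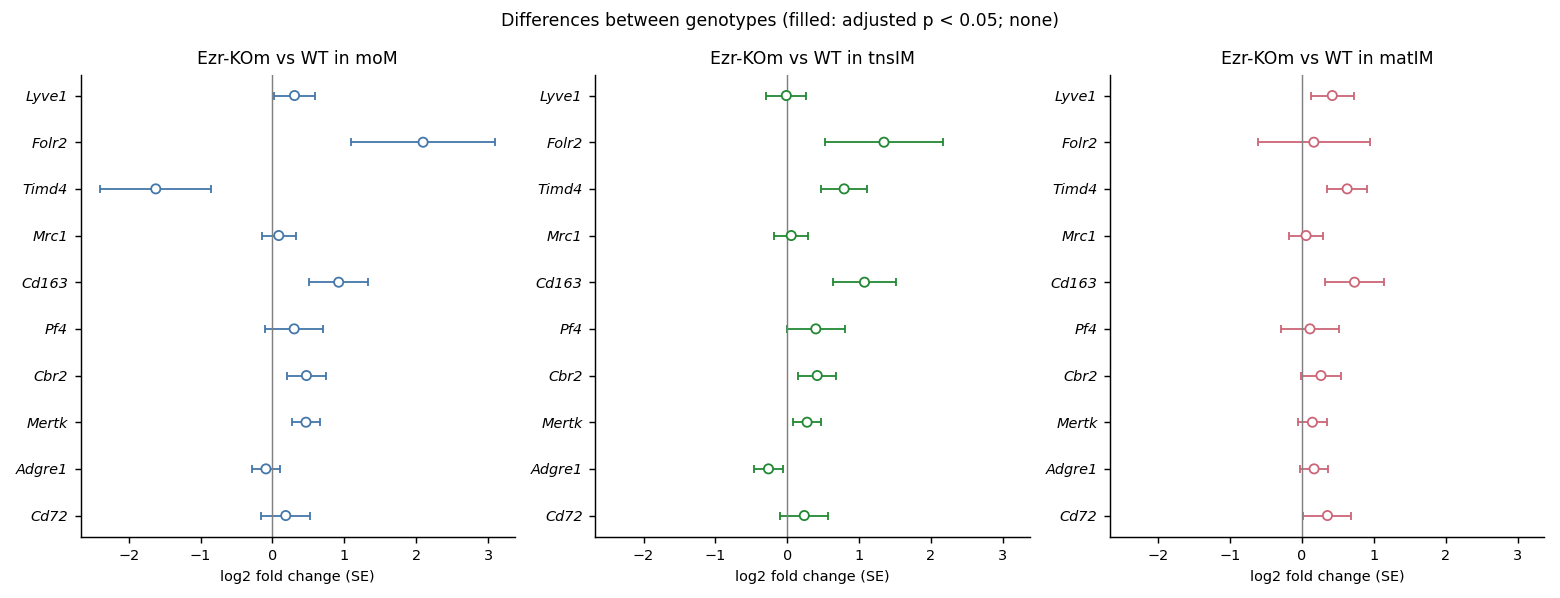
Log2 fold change of Ezr-KOm against WT with its SE (horizontal axis) for each member (vertical axis) in moMs, tnsIMs and matIMs. Open points did not pass the adjusted threshold, which is all of them, and in matIMs the 10 estimates lie above 0. The points of *Folr2* and *Timd4* in moMs depend on a prior count.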

How the data were processed

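Each of the 18 libraries was made by the authors from RNA of sorted lung cells (RNA integrity number of at least 8), amplified with a full-length low-input kit and sequenced as read pairs. Per the methods and the submitters' processing notes, reads were aligned to GRCm39 with STAR 2.7.9a and the authors deposited the read counts per gene without normalization. Which strand column of those counts was taken is not given in the sources used here.

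1 of the WT tnsIM titles lacks its replicate number, which its description gives. The labels do not say which libraries came from the same mouse. The study gives 3 mice per genotype for these data, so the 3 populations of a genotype shared mice. The model without a block leaves this pairing out. The p-values measure only the spread between these libraries, which may be partly technical.

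R 4.3.3 and edgeR 4.0.16 were used, with the normalization and test that the study names: filterByExpr on the 6 groups with a smallest count of 10, TMM (factors 0.9306 to 1.0685), 1 quasi-likelihood model of 6 groups, and Benjamini-Hochberg adjustment over the 15811 genes tested. The SE is the log2 fold change divided by the square root of F. CPM values scale each count by the library's total and its TMM factor, and levels per kb use the exon length of a later Gencode release. For *Pf4* that length exceeds the deposited span of the gene. Where no library of a group held more than 3 counts, the ratio of summed counts is given with an exact 95% counting interval. Correlations use log2 CPM with a prior count of 2, and those with summed marker lists log2 of CPM plus 0.1. The pipeline was tested on simulated data. Alternatives were DESeq2 1.42.0, another normalization, 2 filters, fits of the compared groups alone, blocks by replicate number, and leaving out each library.

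Deviations from the group means of WT and Ezr-KOm libraries with the same replicate number correlated at 0.102 to 0.316 within a population, against -0.238 to 0.0508 for different numbers, so the numbers pair these libraries. The block changed no adjusted call between the genotypes. Values above come from the model without a block unless stated, and the calls that the block added between populations are given below.

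The members and gene lists were chosen with earlier results of these data known. The text names all members, the 3 genes most correlated with each, and of each list at most 3 genes with the smallest p. *Prox1* and *Reln* were named after their values were seen. Figures were drawn with matplotlib 3.10.9.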

Additional observations from a re-analysis of the deposited data

How the results depend on the processing

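With 1 library left out, 1524 values kept their direction and their side of the threshold, 49 lost a call, 16 gained one and 31 changed sign. Under the other alternatives 619 kept both, 12 lost a call, 26 gained one and 9 changed sign. The calls of *Timd4* and *Cd72* against moMs, of *Timd4* and *Cd163* in matIMs against tnsIMs, of *Lyve1* in tnsIMs against both other populations and in WT matIMs against moMs, of *Cbr2* in tnsIMs against both, of *Mrc1* in matIMs against moMs and of *Mertk* in Ezr-KOm matIMs against tnsIMs held under every alternative in which the gene was tested. A minimum of 10 counts in every library leaves out *Timd4* and *Folr2*. The cause of the changes below was not tested.

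In matIMs against tnsIMs of WT, 4 to 7 members were called with 1 library left out, 4 without WT matIM library 2 (13.7% of all tested genes, against 18.5%). By the study's rule, 0 to 2 were called in moMs, 0 without WT moM library 3 or Ezr-KOm moM library 2, and 1 without WT moM library 1, Ezr-KOm matIM library 2 or any 1 of the WT tnsIM or matIM libraries. In tnsIMs 0 to 2 were called, 0 without WT tnsIM library 3 or Ezr-KOm tnsIM library 2 and 1 without WT tnsIM library 2 or Ezr-KOm tnsIM library 3. In matIMs 0 to 1 were called, 1 without WT matIM library 2 or Ezr-KOm matIM library 1 or 3. The count in moMs was also 1 under upper-quartile normalization, a minimum of 10 counts in every library and a fit of the compared groups alone, 3 by DESeq2 and with no filter on low counts, and 0 without all 3 Ezr-KOm replicate 2 libraries, which also gave 0 in tnsIMs, where the minimum of 10 counts gave 1. Only 8 members were tested under that minimum, and 8 in the fit of moMs alone. The share of all tested genes called by the rule was not computed under these alternatives, so the counts cannot be set against it.

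With a replicate block the members called in WT matIMs against moMs went from 4 to 7 (*Folr2* 2.60, *Pf4* 1.01 and *Adgre1* -0.51 added), and also to 7 with the replicate number as a block within each genotype, while over all tested genes the share called went from 24.8% to 30.9% and 31.6%. The block also added *Cd72* in matIMs against tnsIMs (0.86 in WT, 1.03 in Ezr-KOm), *Cd163* in Ezr-KOm tnsIMs against moMs (-1.21), *Pf4* in Ezr-KOm matIMs against moMs (1.05) and tnsIMs (1.13) and *Cbr2* in Ezr-KOm matIMs against moMs (-0.64), and no call between populations was lost. Between populations of 1 genotype, deviations from the group means of libraries with the same number correlated at 0.0905 to 0.397, against -0.295 to 0.0316 for different numbers. Every pair with the same number thus lay above every pair with different numbers. Populations of a genotype shared mice by the study's account, but the labels do not say whether the replicate numbers follow them. The block turned the sign of *Lyve1* in Ezr-KOm against WT tnsIMs to 0.022, and the block within genotypes that of *Folr2* in Ezr-KOm matIMs against tnsIMs to 0.021.

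These values that did not pass the test changed sign with 1 library left out, named in parentheses after the range. In WT tnsIMs against moMs they were *Mrc1* -0.14 to 0.43 (WT moM library 3 or WT tnsIM library 1) and *Pf4* -0.28 to 0.0035 (WT tnsIM library 3), and in WT matIMs against tnsIMs *Adgre1* -0.078 to 0.29 (WT matIM library 2). In Ezr-KOm tnsIMs against moMs they were *Folr2* -0.15 to 1.62 (tnsIM library 2), *Pf4* -0.71 to 0.65 (moM library 2 or tnsIM library 1 or 3) and *Mertk* -0.036 to 0.31 (moM library 3). *Folr2* ranged from -0.00075 to 1.28 in Ezr-KOm matIMs against moMs (moM library 3) and from -0.69 to 0.73 against tnsIMs (tnsIM library 2).

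Between genotypes in moMs they were *Lyve1* -0.010 to 0.49 (Ezr-KOm library 1), *Mrc1* -0.12 to 0.33 (WT library 3 or Ezr-KOm library 2), *Pf4* -0.40 to 0.57 (Ezr-KOm library 2), *Adgre1* -0.31 to 0.0020 (Ezr-KOm library 1) and *Cd72* -0.18 to 0.49 (WT library 2 or Ezr-KOm library 1). In tnsIMs they were *Lyve1* -0.18 to 0.20 (WT library 1 or 3 or Ezr-KOm library 1), *Mrc1* -0.12 to 0.38 (WT library 2 or 3), *Pf4* -0.24 to 0.75 (Ezr-KOm library 2) and *Cd72* -0.19 to 0.58 (Ezr-KOm library 1). In matIMs they were *Folr2* -0.17 to 0.38 (WT library 1 or Ezr-KOm library 3), *Mrc1* -0.069 to 0.18 (WT library 1 or Ezr-KOm library 2) and *Pf4* -0.085 to 0.32 (library 3 of either genotype).

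Upper-quartile normalization turned *Pf4* in Ezr-KOm tnsIMs against moMs to 0.036. Without all 3 Ezr-KOm replicate 2 libraries this value was 0.0046, *Folr2* in Ezr-KOm matIMs against tnsIMs was 0.85, and between the genotypes *Mrc1* was -0.10 in moMs and -0.055 in matIMs and *Pf4* -0.41 in moMs and -0.26 in tnsIMs. The depth limits *Folr2*, at 0 to 59 counts a library, and *Timd4* in moMs.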
